A study of Mus musculus with 9 samples.

Results

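The genes described here are 8 mouse genes for enzymes that activate long-chain fatty acids: the long-chain acyl-CoA synthetases Acsl1, Acsl3, Acsl4, Acsl5 and Acsl6, and the fatty acid transport proteins (FATP) Slc27a1, Slc27a3 and Slc27a4. They were chosen by name, with earlier results of these data known, as were the lists of other genes and markers used below. Counts of calls among them, set beside the share of all tested genes, are therefore description only. Each of the 8 names has a row among the 21899 genes of the deposited expression table. All 8 passed the filter on low counts that left 12448 genes to test. The lowest count of any of them in any library was 169, for Slc27a3.

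The series was set up to ask what Arf1, a small GTPase that recruits coat proteins to Golgi membranes, does in lipid metabolism. Poly(A) RNA was sequenced from Neuro-2a (N2a) cells, a mouse neuroblastoma line, which the labels list as brain tissue, neuroblast cell type and no treatment. The labels give 3 libraries as luciferase knockdown (shlucif, the control hairpin) and 6 as Arf1 knockdown, made with 2 hairpins (3 libraries of shArf1-1 and 3 of shArf1-2). All 3 hairpins, the control included, come from lentiviral plasmids with a puromycin resistance gene, and the sources used here do not say whether cells were pools or clones. The labels also do not say that the libraries of a group are separate cultures, so the p-values measure only the spread between these libraries. The deposited table heads the columns of the second Arf1 hairpin as shArf2, and these were taken as shArf1-2.

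Total counts per library were 13786986, 13381570 and 13631004 in shlucif, 12516668, 11182479 and 15594615 in shArf1-1, and 14659400, 13463280 and 14159344 in shArf1-2. Values in every library are given in the order of replicates, as FPKM, the deposited scale that divides a count by gene length and library total. Comparisons of levels between genes are on this scale and rest on the gene lengths the table lists. Fold changes are log2 values from edgeR on the deposited counts, each ± its standard error (SE). A gene was called when its p-value, adjusted over all 12448 tested genes, was under 0.05.

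A fatty acid can enter almost no pathway until it is joined to coenzyme A, and the enzymes that do so on long chains are the Acsl and FATP families. The Acsl isoforms sit on the endoplasmic reticulum, the outer mitochondrial membrane and lipid droplets, and differ in the chains they prefer, so the mix of isoforms bears on whether acyl-CoA meets the enzymes of phospholipid synthesis, triglyceride storage or oxidation. FATP proteins pair acyl-CoA synthetase activity, often on very long chains, with uptake of fatty acids into the cell. In the nervous system Acsl6 is known for holding docosahexaenoic acid in membranes and Acsl4 for esterifying arachidonic acid.

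Arf1 itself (ENSMUSG00000048076, GRCm38 chr11:59211412-59228270, minus strand) stood at 328, 316 and 328 FPKM in shlucif, at 130, 128 and 127 in shArf1-1, and at 166, 157 and 171 in shArf1-2. All 6 libraries with an Arf1 hairpin lay below all 3 controls, and the shArf1-1 libraries lay below the shArf1-2 libraries. Against shlucif, the edgeR log2 fold change of Arf1 was -1.39 ± 0.05 (adjusted p = 1.39e-22) with shArf1-1 and -1.05 ± 0.05 (adjusted p = 4.2e-19) with shArf1-2. The target sequences of the hairpins, read from the oligos the study lists, are shown here because they define the groups; they are given 5′ to 3′ in lower case, with nothing marked.
shArf1-1 target: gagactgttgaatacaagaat
shArf1-2 target: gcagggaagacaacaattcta
Both are 21 bases of the Arf1 coding sequence on the minus strand of GRCm38, at chr11:59213222-59213242 for shArf1-1 and chr11:59213386-59213406 for shArf1-2. In a search of 141767 mouse transcripts for exact matches, the shArf1-1 target also lay in the pseudogene AC127331.2, and the shArf1-2 target in AC127331.2 and the pseudogene Gm19587. No transcript of the 8 synthetase genes holds either target.

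Cells with an Arf1 hairpin had a different mix of synthetases from control cells. Acsl4 and Slc27a1, the most abundant member of each family in control cells, were lower with both hairpins. Acsl1, Acsl5, Slc27a3 and Slc27a4 were higher with both, Acsl6 was higher with shArf1-1, and Acsl3 was not called with either. With shArf1-1, 5 of the 8 were called higher and 2 lower, against 33.1% and 34.4% of all tested genes. With shArf1-2, 4 were called higher and 2 lower, against 30.9% and 32.6%. With all 6 Arf1 hairpin libraries as a group against the 3 controls, 5 were called higher and 2 lower, against 31.6% and 32.9%. The comparisons share the shlucif libraries. Most tested genes were called in some direction (67.5% with shArf1-1 and 63.4% with shArf1-2), as were 7 and 6 of the 8.

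**Figure D1:**
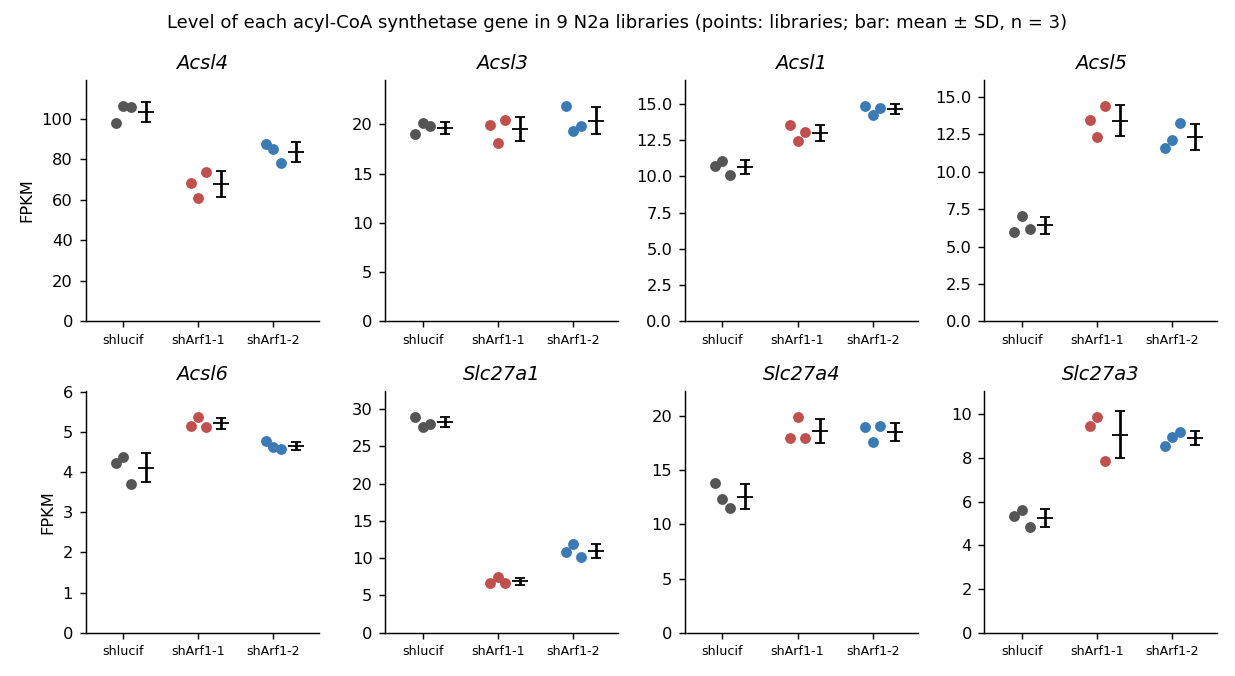
FPKM of each of the 8 genes (y axis from 0, own scale per panel) in each library, by hairpin group (x axis), with bars at the group mean ± SD of 3 libraries. Acsl4 and Slc27a1 lie lower in all 6 Arf1 hairpin libraries than in the controls, 6.63 to 12.0 FPKM against 27.6 to 28.9 for Slc27a1, and Acsl3 overlaps between all groups.

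Acsl4 (ENSMUSG00000031278, chrX:142317993-142390535, minus strand) prefers arachidonic acid and other polyunsaturated chains, and the phospholipids it feeds are those that peroxidise in ferroptosis. Its level was 97.8, 106 and 106 FPKM in shlucif, 68.5, 60.8 and 73.9 in shArf1-1, and 87.4, 84.9 and 77.9 in shArf1-2. The 3 groups did not overlap: control cells were highest, shArf1-2 cells next and shArf1-1 cells lowest. Acsl4 fell by 0.66 ± 0.06 on the log2 scale with shArf1-1 (edgeR adjusted p = 1.5e-11) and by 0.38 ± 0.06 with shArf1-2 (edgeR adjusted p = 1.18e-06). The group means were 103 ± 4.77, 67.7 ± 6.59 and 83.4 ± 4.94 FPKM (SD, n = 3 each).

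Acsl3 (ENSMUSG00000032883, chr1:78657825-78707743, plus strand) works at the endoplasmic reticulum and on forming lipid droplets. Its FPKM was 19.0, 20.2 and 19.8 in shlucif, 19.9, 18.1 and 20.5 in shArf1-1, and 21.9, 19.3 and 19.8 in shArf1-2. All 3 groups overlapped. The edgeR log2 difference from shlucif was -0.06 ± 0.07 (adjusted p = 0.418) with shArf1-1 and -0.02 ± 0.07 (adjusted p = 0.811) with shArf1-2; the latter turned to 0.05 when counts were scaled by library size alone. The 95% intervals ran from -0.20 to 0.07 and from -0.15 to 0.11.

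Acsl1 (ENSMUSG00000018796, chr8:46471037-46536051, plus strand) feeds fatty acid oxidation in heart and triglyceride synthesis in fat and liver. It was counted at 10.7, 11.1 and 10.1 FPKM in shlucif, 13.5, 12.4 and 13.0 in shArf1-1, and 14.9, 14.2 and 14.7 in shArf1-2. Each group lay apart, with control cells lowest and shArf1-2 cells highest. The log2 fold change was 0.24 ± 0.06 with shArf1-1 (edgeR adjusted p = 0.000498) and 0.39 ± 0.06 with shArf1-2 (edgeR adjusted p = 3.87e-07).

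Acsl5 (ENSMUSG00000024981, chr19:55251938-55297720, plus strand), an isoform of mitochondria and the endoplasmic reticulum best known from intestine and liver, had the largest rise among the 8. It stood at 5.98, 7.07 and 6.20 FPKM in shlucif, 13.5, 12.3 and 14.4 in shArf1-1, and 11.6, 12.1 and 13.3 in shArf1-2. All 6 Arf1 hairpin libraries lay above the controls, and the hairpin groups overlapped each other. Relative to shlucif, edgeR put Acsl5 2.02-fold higher with shArf1-1 (log2 1.01 ± 0.08, adjusted p = 3.71e-13) and 1.83-fold higher with shArf1-2 (log2 0.87 ± 0.08, adjusted p = 2.04e-11).

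Acsl6 (ENSMUSG00000020333, chr11:54303798-54364756, plus strand), the isoform enriched in brain, was the least abundant Acsl gene in these cells by FPKM. Its FPKM was 4.23, 4.38 and 3.69 in shlucif, 5.13, 5.37 and 5.12 in shArf1-1, and 4.76, 4.62 and 4.56 in shArf1-2. The groups lay apart, with shlucif lowest and shArf1-1 highest. Acsl6 changed by 0.29 ± 0.08 (log2) with shArf1-1 (edgeR adjusted p = 0.00137) and by 0.11 ± 0.08 with shArf1-2 (edgeR adjusted p = 0.222). The shArf1-2 difference was past the threshold under scaling by library size (0.18, adjusted p = 0.0419) and in limma on log2(FPKM + 1) (0.15, adjusted p = 0.0494), with adjusted p from 0.0419 to 0.702 over its 18 alternatives. Without shlucif replicate 3 it was 0.04 (adjusted p = 0.702).

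Slc27a1 (ENSMUSG00000031808, chr8:71568882-71587302, plus strand), which encodes FATP1, an insulin-responsive fatty acid transporter of muscle and fat, showed the largest change of the 8. Its level was 28.9, 27.6 and 28.0 FPKM in shlucif, 6.70, 7.45 and 6.63 in shArf1-1, and 10.8, 12.0 and 10.1 in shArf1-2. Control libraries were far above both hairpin groups, and shArf1-1 lay below shArf1-2 with no overlap. In edgeR it was 4.24-fold lower with shArf1-1 (log2 -2.08 ± 0.07, adjusted p = 6.61e-24) and 2.70-fold lower with shArf1-2 (log2 -1.43 ± 0.07, adjusted p = 8.59e-20).

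Slc27a4 (ENSMUSG00000059316, chr2:29802634-29817522, plus strand) encodes FATP4, an acyl-CoA synthetase of the endoplasmic reticulum needed for the skin barrier. Its level was 13.8, 12.3 and 11.5 FPKM in shlucif, 18.0, 19.9 and 18.0 in shArf1-1, and 19.0, 17.6 and 19.1 in shArf1-2. The 6 Arf1 hairpin libraries lay above the controls and overlapped between hairpins. The rise was 0.51 ± 0.07 (log2) with shArf1-1 (edgeR adjusted p = 1.69e-07) and 0.49 ± 0.07 with shArf1-2 (edgeR adjusted p = 3.8e-07).

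Slc27a3 (ENSMUSG00000027932, chr3:90385239-90389938, minus strand) encodes FATP3, which has acyl-CoA synthetase activity. Its FPKM was 5.34, 5.61 and 4.83 in shlucif, 9.49, 9.89 and 7.86 in shArf1-1, and 8.58, 8.96 and 9.21 in shArf1-2. As for Slc27a4, every Arf1 hairpin library was above every control, and the hairpin groups overlapped. Slc27a3 rose by 0.73 ± 0.11 (log2) with shArf1-1 (edgeR adjusted p = 5.55e-07) and by 0.69 ± 0.11 with shArf1-2 (edgeR adjusted p = 1.46e-06).

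**Figure D2:**
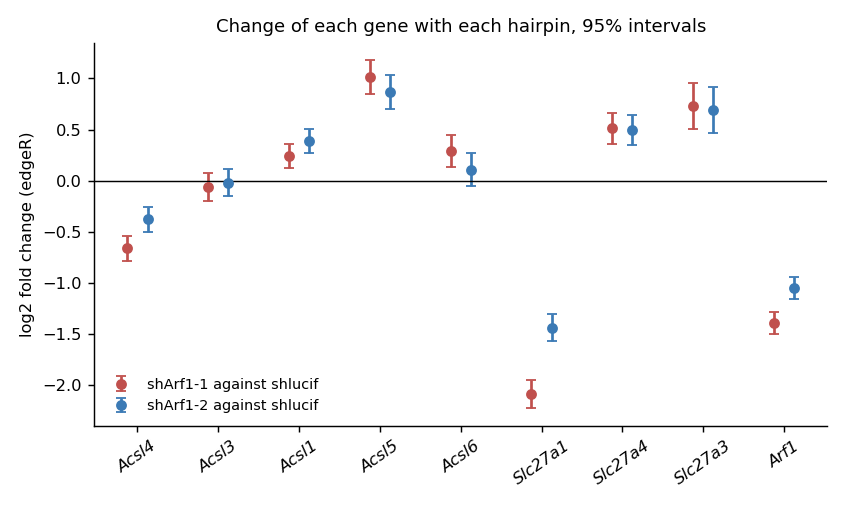
Log2 fold change of each gene and of Arf1 (x axis) against shlucif, from edgeR, with 95% intervals, red for shArf1-1 and blue for shArf1-2. Slc27a1 is lowest, at -2.08 and -1.43, Acsl5 highest, at 1.01 and 0.87, and the intervals of Acsl3 span 0 with both hairpins, its shArf1-2 value changing sign with the scaling.

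With both hairpins as a single group, 6 libraries against 3, the edgeR log2 fold changes were -1.72 ± 0.19 for Slc27a1 (adjusted p = 4.19e-05) and -0.51 ± 0.09 for Acsl4 (adjusted p = 0.00016). Among the genes that rose, Acsl5 changed by 0.94 ± 0.08 (edgeR adjusted p = 1.26e-08) and Slc27a3 by 0.71 ± 0.10 (edgeR adjusted p = 5.59e-06). Slc27a4 changed by 0.50 ± 0.07 (edgeR adjusted p = 4.9e-06) and Acsl1 by 0.32 ± 0.06 (edgeR adjusted p = 0.000186). Acsl6 was at the edge of the threshold, at 0.20 ± 0.08 (edgeR adjusted p = 0.0344). Acsl3 was not called (-0.04 ± 0.06, edgeR adjusted p = 0.581), and its sign turned under scaling by library size (0.02). The median log2 fold change of the 8 was 0.26, beside 0.00 over all tested genes. The Acsl6 call was lost without shlucif replicate 3 (0.13, adjusted p = 0.22), without shArf1-1 replicate 1 (0.19, adjusted p = 0.0609) and without shArf1-1 replicate 2 (0.17, adjusted p = 0.0693), with adjusted p from 0.00691 to 0.22 over its 18 alternatives.

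The direct comparison of the hairpins asks whether these genes differ between the 2 knockdowns. Acsl4 was higher with shArf1-2 than with shArf1-1 by 0.28 ± 0.06 on the log2 scale (edgeR adjusted p = 0.00103, 95% interval 0.16 to 0.40), and Slc27a1 by 0.65 ± 0.07 (edgeR adjusted p = 6.41e-08, 95% interval 0.50 to 0.79). Thus 2 of the 8 were called higher and 0 lower, against 6.98% and 7.46% of all tested genes. At an unadjusted p under 0.05 edgeR had 1 lower, Acsl6, and DESeq2 and limma called 0 lower. Acsl4 and Slc27a1 fell further with shArf1-1, while Acsl1 rose further with shArf1-2 (log2 0.39, against 0.24 with shArf1-1). Arf1 itself was higher with shArf1-2 by 0.34 ± 0.05 (edgeR adjusted p = 1.16e-05), and a link of its level to these differences was not tested. The 6 members other than Acsl4 and Slc27a1 did not pass the threshold. Their differences and 95% intervals were 0.15 (0.03 to 0.27) for Acsl1, -0.18 (-0.34 to -0.02) for Acsl6 and -0.14 (-0.30 to 0.02) for Acsl5. The intervals of Acsl3 (-0.09 to 0.18), Slc27a3 (-0.25 to 0.18) and Slc27a4 (-0.16 to 0.13) spanned 0, and a p-value over the threshold does not show that the hairpins act alike on these genes. For Acsl4 the call was lost in limma on log2(FPKM + 0.1) (0.30, adjusted p = 0.0655; range over 18 alternatives 5.91e-06 to 0.0655), and Acsl1 passed the threshold under scaling by library size (0.17, adjusted p = 0.0407) and by upper quartile (0.17, adjusted p = 0.0397; range over 18 alternatives 0.0397 to 0.222). Over all genes, 1798 were called between the hairpins, 945 in limma on log2(FPKM + 0.1), 1159 without shArf1-1 replicate 1 and 1194 without shArf1-2 replicate 1.

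The shift among Acsl isoforms can be read as the share of each gene in the summed FPKM of the 5, a description with no test. Acsl4 made up 71.0%, 71.4% and 72.6% of the sum in shlucif, 56.8%, 55.7% and 58.2% in shArf1-1, and 62.2%, 62.8% and 59.8% in shArf1-2. Thus Acsl4 stayed the main isoform in every library, with a smaller share in each of the 6 Arf1 hairpin libraries than in any control. Acsl5 took 4.34%, 4.74% and 4.26% in shlucif, 11.2%, 11.3% and 11.4% in shArf1-1, and 8.24%, 8.97% and 10.2% in shArf1-2. The mean share of Acsl1 was 7.38 ± 0.409% in shlucif, 11.0 ± 0.607% in shArf1-1 and 10.8 ± 0.438% in shArf1-2 (SD, n = 3). Acsl3, whose level overlapped between groups, had mean shares of 13.6 ± 0.141%, 16.4 ± 0.257% and 15.0 ± 0.669% in the same order. Acsl6 remained the smallest, with means of 2.85 ± 0.277%, 4.40 ± 0.464% and 3.43 ± 0.0580%. The share of every isoform other than Acsl4 was higher in each Arf1 hairpin library than in each control. A share can rise because the sum falls: the summed Acsl FPKM was 138, 149 and 145 in shlucif, 120, 109 and 127 in shArf1-1, and 141, 135 and 130 in shArf1-2. The sum was lower with shArf1-1 than in either other group, and the shArf1-2 range overlapped that of the controls.

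The order of the Acsl genes by FPKM was Acsl4, Acsl3, Acsl1, Acsl5 and Acsl6, from high to low, in 8 of the 9 libraries. The exception was shArf1-1 replicate 3, where Acsl5 stood above Acsl1. The order rests on the listed gene lengths: of the Acsl counts, not divided by length, Acsl1 had a larger share than Acsl3 in all 3 groups (13.5% against 10.4% in shlucif). Acsl6 had a larger share of these counts than Acsl5 in shlucif (4.92% against 3.77%). In both Arf1 hairpin groups it had a smaller one (7.36% against 9.25% in shArf1-1, 5.77% against 7.53% in shArf1-2). Within a group, neighbours in the FPKM order overlapped only for Acsl1 and Acsl5 in shArf1-1. Acsl4 and Acsl5 came closer to each other: the ratio of Acsl4 to Acsl5 FPKM had a mean of 16.1 ± 1.01 in shlucif, 5.05 ± 0.101 in shArf1-1 and 6.81 ± 0.856 in shArf1-2 (SD, n = 3).

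The FATP genes changed order. Slc27a1 made up 60.2%, 60.6% and 63.2% of the summed FPKM of the 3 genes in shlucif, 19.6%, 20.0% and 20.4% in shArf1-1, and 28.2%, 31.0% and 26.3% in shArf1-2. Slc27a4 made up 28.7%, 27.1% and 26.0% in shlucif, 52.7%, 53.5% and 55.4% in shArf1-1, and 49.4%, 45.7% and 49.7% in shArf1-2. Slc27a3 had mean shares of 11.4 ± 0.772%, 26.2 ± 1.79% and 23.2 ± 0.802% in the same order (SD, n = 3). In control cells Slc27a1 was thus the highest and Slc27a3 the lowest, while in all 6 Arf1 hairpin libraries Slc27a4 was the highest. Slc27a1 came last with shArf1-1 and between Slc27a4 and Slc27a3 with shArf1-2. No neighbours in these orders overlapped within any group. The last place of Slc27a1 with shArf1-1 rests on the listed gene lengths: of the counts of the 3 genes, not divided by length, Slc27a1 had 27.7% and Slc27a3 16.0% in that group. The ratio of Slc27a1 to Slc27a4 FPKM had means of 2.26 ± 0.169, 0.372 ± 0.00267 and 0.593 ± 0.0769. The summed FPKM of the 3 genes was 48.0, 45.6 and 44.4 in shlucif, 34.2, 37.2 and 32.5 in shArf1-1, and 38.4, 38.5 and 38.5 in shArf1-2. Every Arf1 hairpin library was below every control in this sum.

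**Figure D3:**
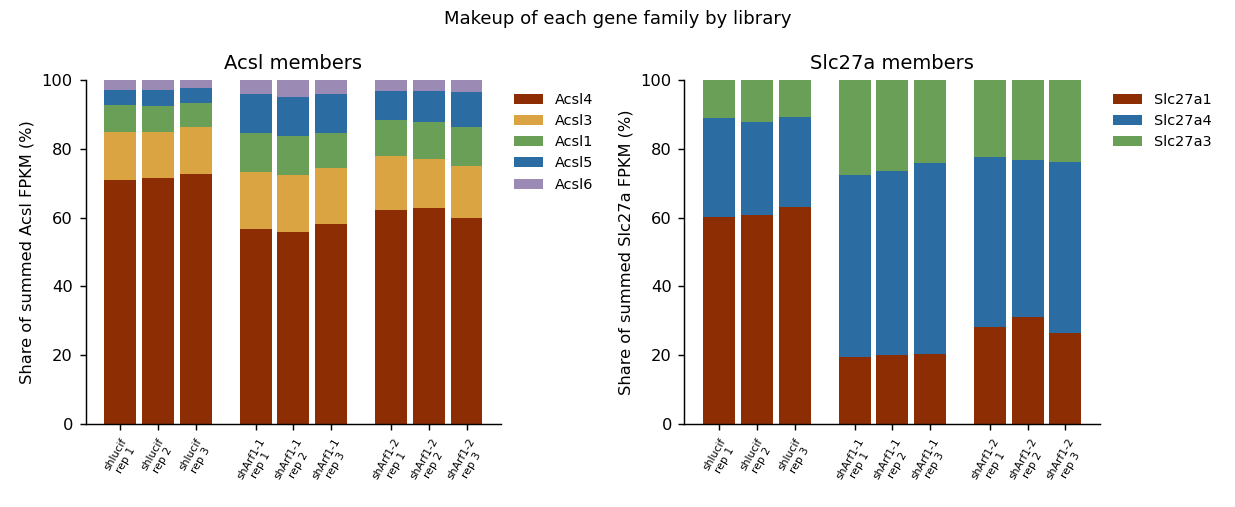
Share of each gene in the summed FPKM of its family (y axis, %), stacked for each of the 9 libraries (x axis), Acsl genes at left and Slc27a genes at right. Acsl4 takes 71.0% to 72.6% in shlucif and 55.7% to 62.8% in the Arf1 hairpin libraries, and Slc27a1 takes 60.2% to 63.2% and 19.6% to 31.0%.

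The groups also differ in markers of other cells, and in bulk RNA fewer cells of a type cannot be told apart from less RNA per cell. Of 20 macrophage and microglia markers, 17 were tested and all 17 were lower in the Arf1 hairpin libraries, beside 32.9% of all tested genes. Of the 20, 16 had at most 3 counts in every Arf1 hairpin library, so any of these that were tested passed the filter only through the controls. For these a lower call was nearly fixed in advance, and the count of 17 is description only. With at least 10 counts required in every library, 0 were called lower, since that filter leaves the markers out. The summed level of all 20 was 396, 360 and 329 CPM (counts scaled to library total) in shlucif, 1.28, 1.34 and 1.47 in shArf1-1, and 1.50, 1.71 and 1.91 in shArf1-2. The most abundant, Lyz2, stood at 60.1 to 68.2 FPKM in shlucif and at 0.146 to 0.564 in the Arf1 hairpin libraries. Aif1, Itgam, Cx3cr1, C1qa, C1qb, C1qc, Spi1 and Ctss had 0 counts in all 6 of these libraries, where the highest count of any marker was 10. The part of these markers in the differences of the 8 genes from shlucif was not tested. Between the hairpins these markers were at or near 0 in all 6 libraries, while markers of the fibroblast and neuroblast lists differed.

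Of 8 fibroblast markers, 4 were tested, and 2 were lower, Pdgfrb and Col1a1 (both log2 -1.71), beside 32.9% of all tested genes. The other 2 tested were not called, and of these Dcn went the other way (log2 0.45, edgeR adjusted p = 0.197). Another 4 of the 8 had at most 3 counts in every library. By edgeR 0 were higher, also at an unadjusted p under 0.05, as by DESeq2, against 1 in limma on log2(FPKM + 0.1). Over its 17 alternatives the log2 fold change of Col1a1 ran from -2.01 to -0.556, and it was called in all 17. The summed CPM of all 8 fibroblast markers was 43.0, 43.0 and 43.7 in shlucif, 16.1, 15.8 and 16.0 in shArf1-1, and 21.8, 23.2 and 23.3 in shArf1-2, Pdgfrb was the most abundant, and Col3a1 and Postn were at 0 in all 9 libraries. This sum, like Acsl4 and Slc27a1, was lowest with shArf1-1. Between the hairpins, 2 of the 4 tested were called higher with shArf1-2, Col1a1 (log2 1.41, edgeR adjusted p = 0.00229) and Pdgfrb (log2 0.91, edgeR adjusted p = 8.81e-06), beside 6.98% of all tested genes. The part of these markers in the differences of the 8 genes, from shlucif and between the hairpins, was not tested.

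The neuroblast label was checked against 14 markers. Of these, 13 were tested, and 12 were higher in the Arf1 hairpin libraries, beside 31.6% of all tested genes; each hairpin alone gave 11. None was lower in edgeR (0 also at an unadjusted p under 0.05), DESeq2 or limma. The summed level of all 14 was 2190, 2148 and 2136 CPM in shlucif, 4257, 4367 and 4141 in shArf1-1, and 3822, 3671 and 3875 in shArf1-2. Tubb3, a neuronal tubulin, was the most abundant, with group means of 410, 694 and 695 FPKM. Dbh, an enzyme of noradrenaline synthesis, rose by 1.85 on the log2 scale and the transcription factor Gata3 by 1.53. Over its 18 alternatives the log2 fold change of Dbh ran from 1.08 to 1.97, and it was called in all 18. Between the hairpins, 7 of the 13 tested were called lower with shArf1-2, beside 7.46% of all tested genes, among them Dbh (log2 -0.78, edgeR adjusted p = 0.00674) and Gata3 (log2 -0.39, edgeR adjusted p = 0.0329). The part of these markers in the differences of the 8 genes, from shlucif and between the hairpins, was not tested.

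The other acyl-CoA synthetases of a list of 18 were mostly scarce: 8 were tested, 1 was higher and 4 lower with the Arf1 hairpins, beside 31.6% and 32.9% of all tested genes, and the median log2 fold change was -0.18 beside 0.00 over all tested genes. Each hairpin alone gave 1 higher, with 4 lower for shArf1-1 and 3 for shArf1-2, and 4 of the 8 were higher with shArf1-2 than with shArf1-1, beside 6.98% of all tested genes. Aacs, which activates acetoacetate, rose by 0.48 ± 0.13 (edgeR adjusted p = 0.00561), with means from 18.0 FPKM in shlucif to 22.5 in shArf1-1 and 30.1 in shArf1-2. Acss2, which activates acetate, fell by 0.26 ± 0.08 (edgeR adjusted p = 0.0054). Aasdh fell by 0.91 ± 0.14 (edgeR adjusted p = 1.5e-05). Acsf2 went from 49, 35 and 36 counts in shlucif to 4, 1 and 6 in shArf1-1 and 11, 13 and 7 in shArf1-2, a fall of 2.57 ± 0.37 (edgeR adjusted p = 5.6e-06). Over its 17 alternatives the log2 fold change of Acsf2 ran from -2.83 to -0.696, and it was called in all 17. Acsm3 went from 19, 21 and 17 counts to 0, 2 and 4 and to 11, 16 and 5, a log2 fold change of -1.64 ± 0.53 (edgeR adjusted p = 0.0114) that was not called without shlucif replicate 2 (-1.56, adjusted p = 0.0503; range over 17 alternatives 0.000104 to 0.0503). Over these 17 alternatives the log2 fold change of Acsm3 ran from -2.15 to -0.236. By hairpin Acsm3 was called with shArf1-1 (log2 -3.18, edgeR adjusted p = 2.34e-05) and not with shArf1-2 (log2 -0.94, edgeR adjusted p = 0.0636), and the hairpins differed (log2 2.23, edgeR adjusted p = 0.021). Slc27a6 (11 to 27 counts), Acsbg3 (4 to 15 counts) and Acsf3 (287 to 519 counts) were not called against shlucif, and Acsf3 was higher with shArf1-2 than with shArf1-1 (log2 0.29, edgeR adjusted p = 0.0399). Acsbg1 had 5 to 22 counts and Acss1 1 to 14, too few to be tested. Slc27a2 and Acsm4 had at most 1 count and Slc27a5 at most 5 in any library, and Acsbg2, Acss3, Acsm1, Acsm2 and Acsm5 had 0 in all 9.

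Lists of genes that take up, carry or use the substrates and products of these enzymes are given for the 6-against-3 comparison, in which 31.6% of all tested genes were called higher and 32.9% lower, with a median log2 fold change of 0.00. The shares were 33.1% and 34.4% with shArf1-1 alone and 30.9% and 32.6% with shArf1-2 alone. Of 19 genes for fatty acid uptake and binding, 11 were tested, with 1 higher and 7 lower (median log2 fold change -0.21), against 0 and 6 with shArf1-1 and 1 and 8 with shArf1-2. Fabp4, a fatty acid binding protein of fat cells and macrophages, had 236, 225 and 258 counts in shlucif and 0 in all 6 Arf1 hairpin libraries, and the scavenger receptor Cd36 had 136, 105 and 106 counts against at most 1. Fabp4 and Cd36 passed the filter only through the controls, so their lower calls were nearly fixed in advance. Fabp3, the heart type binding protein, fell by 1.94 ± 0.17. Acbd5 was called higher (0.21), a call lost in 12 of 18 alternatives and not made with shArf1-1 alone (log2 0.10, edgeR adjusted p = 0.247). Of 16 acyl-CoA thioesterases, which undo the synthetase reaction, 8 were tested, with 2 lower in edgeR, Acot13 (-0.74) and Acot9 (-0.36), and a median of -0.15. None of the 8 was higher in the 6-against-3 edgeR fit, with 0 also at an unadjusted p under 0.05 and in DESeq2, and 1 in limma on log2(FPKM + 0.1). By hairpin, shArf1-1 gave 0 higher and 3 lower, and shArf1-2 gave 2 lower and 1 higher, Acot2 (log2 0.36, edgeR adjusted p = 0.00821).

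Of 18 enzymes that put acyl-CoA into glycerolipids and sterol esters, 17 were tested, with 7 higher and 4 lower (median 0.26), beside 31.6% and 32.9% of all tested genes. The counts differed by hairpin, with 5 higher and 6 lower for shArf1-1 (median 0.11) and 8 higher and 4 lower for shArf1-2 (median 0.28). The acyltransferases Agpat5 (log2 0.51) and Agpat3 (0.47) rose. Agpat2 was called higher (0.37) in the 6-against-3 fit and with shArf1-2 (log2 0.53, edgeR adjusted p = 4.84e-06), not with shArf1-1 (log2 0.19, edgeR adjusted p = 0.0696), and the hairpins differed (log2 0.34, edgeR adjusted p = 0.00874). The sterol acyltransferase Soat1 (-1.94), the phosphatidate phosphatase Lpin1 (-1.79) and Agpat4 (-1.13) fell. Among 12 genes for remodelling of phospholipids, where Acsl4 supplies arachidonoyl-CoA, 11 were tested, with 3 higher and 4 lower (median -0.05), against 2 and 5 with shArf1-1 and 3 and 4 with shArf1-2. Lpgat1 (1.21), Lpcat1 (0.52) and Lpcat4 (0.25) rose, though Lpcat4 was not called without shlucif replicate 2 (0.21, adjusted p = 0.057; range over 18 alternatives 0.000726 to 0.057) or with shArf1-1 alone (log2 0.15, edgeR adjusted p = 0.0661). Mboat1 (-0.90) and Pla2g15 (-0.80) fell, and Pla2g4a, the phospholipase that frees arachidonic acid, had 132, 146 and 126 counts in shlucif and 0 to 5 in the Arf1 hairpin libraries. Pla2g4a passed the filter only through the controls, so its lower call was nearly fixed in advance.

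For entry into mitochondria and peroxisomes, 8 of 10 genes were tested, with 2 higher, Cpt1a (0.55) and Crat (0.29), and 2 lower, Cpt2 (-0.55) and Cpt1c (-0.36), and a median of 0.05; scaling by library size and both limma settings gave 4 higher, and no filter gave 4 lower. Each hairpin alone gave 3 higher and 2 lower. Cpt1a takes long-chain acyl-CoA at the outer mitochondrial membrane, and Cpt2 re-forms it inside. Of 21 genes for desaturation and elongation, which work on acyl-CoA, 18 were tested, with 8 higher and 6 lower (median 0.17), beside 31.6% and 32.9% of all tested genes, and each hairpin alone gave the same counts. Elovl6 (0.95), Scd3 (0.80) and Scd2 (0.64) rose most, and Elovl7 (-0.60), Fads3 (-0.48) and Elovl5 (-0.33) fell most. Of 15 transcription factors of lipid metabolism, 12 were tested, with 1 higher and 7 lower (median -0.44), against 1 and 7 with shArf1-1 and 1 and 6 with shArf1-2. Ppard (-1.48), Pparg (-1.28) and Rxra (-0.92), nuclear receptors known to act on Acsl and FATP genes in other tissues, fell. Srebf1 was called higher (0.13), a call lost in 10 of 18 alternatives and not made with shArf1-2 alone (log2 0.11, edgeR adjusted p = 0.0712). As for the 8 synthetases, the macrophage markers moved with these differences from shlucif, and their part was not tested.

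The genes whose log2 CPM was most like that of each synthetase over the 9 libraries, among 10228 compared, are given by Pearson r with no test; the libraries form 3 groups, so r follows the group levels as well as the spread within them. For Slc27a1 these were Map4 (r = 0.998) and Tanc1 (0.996), and for Acsl4 they were Ppp2r5a (0.995) and Ttc3 (0.994). Acsl5 was most like Slc6a15 (0.997) and Kti12 (0.995), and Acsl1 most like Ampd3 (0.983) and Gpt2 (0.981). Acsl6 was closest to Car12 (0.974) and Nutf2-ps1 (0.963). Slc27a4 was closest to Osbpl10 (0.996) and Gtse1 (0.993), and Slc27a3 to Kifc5b (0.990) and Psmf1 (0.988). For Acsl3, whose level overlapped between groups, the highest values were those of Spata7 (0.891) and Azin1 (0.867). The like genes of Slc27a1 changed less in size: Map4 had group means of 18.7, 12.9 and 15.0 FPKM, and Tanc1 of 15.4, 7.06 and 9.01.

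Of the 8 genes, 4 share exon bases with another gene in the GRCm38 annotation, and the sources do not say whether counting used the strand, so counts there are uncertain. Acsl5 shares 404 bases with Zdhhc6 on the opposite strand. Zdhhc6 stood at 6.65, 6.67 and 6.81 FPKM in shlucif, 10.9, 11.2 and 11.6 in shArf1-1, and 10.6, 10.3 and 11.7 in shArf1-2, so it was higher in the same libraries as Acsl5. Its log2 fold change in the 6-against-3 comparison was 0.66 ± 0.06 (edgeR adjusted p = 4.47e-08). Acsl3 shares 244 bases with Utp14b on the same strand, whose FPKM was 1.09, 1.39 and 1.27 in shlucif, 2.71, 2.25 and 3.34 in shArf1-1, and 2.78, 3.18 and 3.17 in shArf1-2. Acsl1 shares 1039 bases with Gm45244 and Acsl6 shares 202 with Gm12224, both on the opposite strand and without a row in the table. Acsl4, Slc27a1, Slc27a3 and Slc27a4 share none.

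Promoters from RefSeq on GRCm38.p6 were found for all 8 genes, 13 windows of 300 bases that run from 250 before to 50 after a transcription start. The windows of the genes whose mean share of their family FPKM fell and rose most are shown, since these carry the shift on that scale: Acsl4 (chrX:142390486-142390785, minus strand), Acsl5 (chr19:55253119-55253418, plus strand), Slc27a1 with its 3 starts (chr8:71568621-71568920, chr8:71569347-71569646 and chr8:71570344-71570643, plus strand) and Slc27a4 (chr2:29802384-29802683, plus strand). In shares of counts, not divided by length, Acsl1 rose more than Acsl5. Acsl1 went from 13.5% in shlucif to 19.4% in shArf1-1 and 19.2% in shArf1-2, and Acsl5 from 3.77% to 9.25% and 7.53%. Each window is written 5′ to 3′ on the strand of the gene, with matches to the motifs searched in capitals.
Acsl4 promoter: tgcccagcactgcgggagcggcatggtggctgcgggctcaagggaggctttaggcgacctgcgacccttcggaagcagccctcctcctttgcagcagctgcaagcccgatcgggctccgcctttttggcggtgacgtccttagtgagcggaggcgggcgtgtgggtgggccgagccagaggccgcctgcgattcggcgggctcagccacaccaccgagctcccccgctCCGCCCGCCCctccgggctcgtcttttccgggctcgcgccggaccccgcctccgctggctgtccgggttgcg
Acsl5 promoter: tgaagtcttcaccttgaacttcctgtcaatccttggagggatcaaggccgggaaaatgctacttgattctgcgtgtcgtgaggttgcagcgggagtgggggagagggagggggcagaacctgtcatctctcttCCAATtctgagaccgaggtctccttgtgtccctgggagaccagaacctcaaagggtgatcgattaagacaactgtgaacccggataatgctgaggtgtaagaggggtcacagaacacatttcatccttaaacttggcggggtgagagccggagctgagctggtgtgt
Slc27a1 promoter 1: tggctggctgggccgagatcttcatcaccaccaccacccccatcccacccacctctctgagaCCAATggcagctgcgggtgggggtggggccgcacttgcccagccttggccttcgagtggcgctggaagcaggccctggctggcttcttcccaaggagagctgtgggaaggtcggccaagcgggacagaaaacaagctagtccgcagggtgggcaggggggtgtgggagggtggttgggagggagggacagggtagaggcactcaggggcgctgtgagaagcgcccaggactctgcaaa
Slc27a1 promoter 2: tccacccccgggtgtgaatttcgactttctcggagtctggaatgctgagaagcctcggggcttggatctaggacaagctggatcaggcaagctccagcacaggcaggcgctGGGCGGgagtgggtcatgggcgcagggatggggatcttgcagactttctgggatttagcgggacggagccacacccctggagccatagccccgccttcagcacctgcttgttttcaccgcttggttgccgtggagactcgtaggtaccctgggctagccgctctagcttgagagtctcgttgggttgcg
Slc27a1 promoter 3: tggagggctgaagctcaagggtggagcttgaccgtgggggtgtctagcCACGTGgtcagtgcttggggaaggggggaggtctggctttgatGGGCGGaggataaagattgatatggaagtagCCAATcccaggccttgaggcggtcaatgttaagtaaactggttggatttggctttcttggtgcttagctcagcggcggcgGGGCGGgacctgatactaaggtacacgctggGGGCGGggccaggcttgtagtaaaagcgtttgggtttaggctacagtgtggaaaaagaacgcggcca
Slc27a4 promoter: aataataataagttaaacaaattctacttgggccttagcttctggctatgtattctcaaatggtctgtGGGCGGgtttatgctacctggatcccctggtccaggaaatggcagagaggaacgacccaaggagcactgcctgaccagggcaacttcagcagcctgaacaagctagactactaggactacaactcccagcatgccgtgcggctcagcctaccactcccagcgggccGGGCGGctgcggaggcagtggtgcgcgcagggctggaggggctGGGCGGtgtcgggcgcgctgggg
The motifs were searched on both strands: the GC box GGGCGG, held by 35.7% of all 32851 promoters of this length, the CCAAT box CCAAT (37.4%), the E-box CACGTG (7.15%) and the TATA box TATAAA (13.6%). The sterol response element TCACCCCAC was in 0.551% and DR1, a direct repeat AGGTCANAGGTCA bound by PPAR and RXR factors, in 0.0396%. The shorter AGGTCA, which makes up each side of DR1, was in 16.3% and is not in capitals. The Acsl4 window held 2 GC boxes that overlap each other, the Acsl5 window 1 CCAAT box and the Slc27a4 window 3 GC boxes. Of the Slc27a1 windows, the first held 1 CCAAT box, the second 1 GC box and the third 1 E-box, 1 CCAAT box and 3 GC boxes. Among all 13 windows, 1 match to TCACCCCAC was found, in the second window of Acsl1, and 0 matches to DR1 or TATAAA. Base composition differed between the windows: GC content was 71.7% in Acsl4, 53.0% in Acsl5 and 58.7% in Slc27a4, beside a median of 52.7% over all promoters. In the Slc27a1 windows it was 65.7%, 60.7% and 56.3%. The number of CG dinucleotides was 33 in Acsl4, 9 in Acsl5, 14 in Slc27a4 and 10, 16 and 13 in the Slc27a1 windows, beside a median of 7. A match describes letters only and shows no binding.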

How the data were processed

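Read counts and FPKM of the 9 libraries were taken from the deposited table. The counts are whole numbers per gene as deposited, and the FPKM values were made by the authors from count, listed gene length and library total, which recomputation from those columns returned to within rounding. The genome mm10 is named in the submitters' processing notes; aligner and counting tool are not given in the sources used here. The 8 lines without a gene were left out. Coordinates in the table were not used; loci are from GRCm38 (GENCODE vM21) by gene identifier. Members and lists were chosen with earlier results of these data known.

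Counts were filtered (filterByExpr, leaving 12448 of 21899 genes), scaled by TMM and fitted by quasi-likelihood in edgeR 4.0.16 under R 4.3.3, with 3 groups for each hairpin and for the hairpins against each other, and 2 groups for 6 libraries against 3. P-values were adjusted by Benjamini-Hochberg over all tested genes, with a threshold of 0.05. Standard errors and intervals come from the quasi-likelihood F. Totals ran from 11182479 to 15594615 counts. The steps were tested on simulated data. Named were the 8 members, Arf1, the other synthetases, up to 3 genes per list and direction with the largest called change and at least 5 CPM, the most abundant and the absent markers, and the 2 most alike genes per member (log2 CPM, prior count 2). Alternatives were DESeq2 1.42.0, limma 3.58.1 on log2(FPKM + 1) and log2(FPKM + 0.1), library size and upper quartile scaling, no filter, at least 10 counts in every library, the replicate number as a block, fewer libraries in the fit, the mean of the hairpin contrasts, each library left out, and shares of counts or over all 8 members. Tables were made in Python 3.11.15.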

Additional observations from a re-analysis of the deposited data

Results flagged for a closer look

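The fall of Acsl4 and of Slc27a1 against the shared controls differed between the 2 hairpins when the difference itself was tested. It was 0.28 on the log2 scale for Acsl4 (edgeR adjusted p = 0.00103) and 0.65 for Slc27a1 (edgeR adjusted p = 6.41e-08), shArf1-2 minus shArf1-1. For Acsl4 the difference did not pass the threshold in limma on log2(FPKM + 0.1) (0.30, adjusted p = 0.0655; range over 18 alternatives 5.91e-06 to 0.0655). All 3 shArf1-2 libraries lay above all 3 shArf1-1 libraries for both genes.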

How the results depend on the processing

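Of 576 values of the 8 genes under other settings, 555 kept their direction and their side of the threshold. The sign of Acsl3, called in no setting, turned with shArf1-2 to 0.0513 under library size scaling, 0.0468 in limma on log2(FPKM + 1) and 0.0488 on log2(FPKM + 0.1), and in the 6-against-3 comparison to 0.0215, 0.0177 and 0.0185; the cause was not tested. With 1 library left out, Acsl3 ran from -0.0788 to 0.0252 with shArf1-2 and from -0.0175 to 0.0862 between hairpins, where Slc27a3 ran from -0.140 to 0.0313 and Slc27a4 from -0.0486 to 0.0329. In these fits, calls among the 8 numbered 7, 6 and 2 for shArf1-1, shArf1-2 and the hairpin difference, and 6 to 7 for 6 against 3. With all libraries, shArf1-2 had 7 calls under library size scaling and limma on log2(FPKM + 1), where Acsl6 passed, and the hairpin difference had 3 under library size and upper quartile scaling, where Acsl1 passed; the cause was not tested. Between the hairpins, limma on log2(FPKM + 0.1) called 1, with 59.9% of all called genes higher against 48.3% in edgeR; the cause was not tested.

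Acsl4 took 67.5%, 51.9% and 56.4% (shlucif, shArf1-1, shArf1-2) of the Acsl counts, which are not divided by length, and 54.3%, 44.1% and 48.0% of the FPKM of all 8. Slc27a1 took 70.5%, 27.7% and 37.9% of the Slc27a counts and 14.8%, 4.53% and 6.31% of the FPKM of all 8. Slc27a3 took 5.79%, 16.0% and 13.6% of the Slc27a counts.

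Among other synthetases not called, Acsf3 turned to 0.0321, 0.0182 and 0.0190 under library size scaling and the 2 limma settings. With 1 library left out, Acsf3 ran from -0.0873 to 0.0308, Acsbg3 from -0.411 to 0.224 and Slc27a6 from -0.0496 to 0.361. Acsbg3, Acsf2, Acsm3, Fabp4, Cd36, Pla2g4a and Col1a1 have no value with at least 10 counts in every library, since that filter leaves them out.

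Replicate numbers showed no sign of pairing libraries. After removal of group means, the mean correlation of libraries with the same number was 0.00700 (range -0.0822 to 0.0941, 0 of 9 over 0.1). For other numbers the mean was -0.00333 (range -0.187 to 0.193, 3 of 18 over 0.1). Whether libraries shared a culture or day cannot be told from these values. With the number as a block, 7, 6, 2 and 7 of the 8 were called for shArf1-1, shArf1-2, the hairpin difference and 6 against 3.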
